A study of Mus musculus with 16 samples.

Results

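The Dlx homeobox genes Dlx1 to Dlx6 were examined in mouse embryonic stem cells (ESCs), as 6 of 26180 genes with a curated RefSeq transcript. They were chosen by name as a gene family. The peaks described are those of 6 deposited ChIP-sequencing lists that lay within 2500 bp of a Dlx start site or between the members of a pair, which gave 127 of 107863 peaks. LIF-ESCs were grown with 100 units per ml LIF and no 4-hydroxytamoxifen (OHT). Myc-ESCs were grown with 50 nM OHT and no LIF. Both were R1 mouse ESCs kept without feeder cells that, as the study describes them, carried MycER, in which Myc is joined to the part of the estrogen receptor that binds hormone, so that OHT switches it on. The study uses the name MycER for a line, 1 clone, whose Myc carries a point mutation, and describes another MycER clone beside it. The labels of these libraries do not name a clone. LIF and OHT differed together, so the absence of LIF and the activity of Myc cannot be told apart. The antibodies were against H3K4me3, H3K27me3 and Suz12, and 1 list stood for the 2 libraries of each culture and antibody. The lists hold no read counts and no replicates, so depth is unknown, no spread between replicates can be given, and every difference between cultures below is a description of 2 lists without a test.

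Dlx genes encode transcription factors related to Drosophila Distal-less. In mammals they lie in convergent pairs, with the 3′ ends of the paired genes facing each other, and the stretch between them holds enhancers that serve both. Dlx1 and Dlx2 drive the formation and migration of GABAergic interneurons of the forebrain. Dlx5 and Dlx6 specify the lower jaw and act in limb, bone and forebrain, and Dlx3 acts in skin, hair, teeth and placenta. None of these tissues is present in an ESC culture. H3K4me3 marks active and poised start sites, H3K27me3 is laid down by Polycomb repressive complex 2 (PRC2), and Suz12 is a core subunit of that complex. Developmental genes in ESCs often carry H3K4me3 and H3K27me3 together, a state called bivalent.

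The pairs occupied compact stretches of the GRCm38 genome. Dlx1 (gene 13390, plus strand, 3 exons) covered chr2:71529445-71533981 and Dlx2 (gene 13392, minus strand, 3 exons) chr2:71543408-71546754, with 9426 bp between them. Dlx3 (gene 13393, plus strand, 3 exons) covered chr11:95120117-95125296 and Dlx4 (gene 13394, minus strand, 3 exons) chr11:95140447-95145801, with 15150 bp between them. Dlx6 (gene 13396, plus strand, 4 exons) covered chr6:6863334-6867970 and Dlx5 (gene 13395, minus strand, 3 exons) chr6:6877801-6882068, with 9830 bp between them. Noncoding genes overlapped each stretch: Dlx1as, Dlx4os, and on chromosome 6 Dlx6os1 and Dlx6os2, of which the Dlx6os1 transcripts begin on both sides of Dlx6.

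The promoter sequences of Dlx1 and Dlx2 are printed as examples from a pair with Suz12 called over most of its length, though not over the Dlx2 start site. RefSeq promoter sequences on GRCm38 were at hand for 2 of the members, Dlx1 and Dlx2. Capitals mark CpG dinucleotides, and base 251 of each sequence is the start site.
Dlx1 promoter, chr2:71529195-71529494, plus strand: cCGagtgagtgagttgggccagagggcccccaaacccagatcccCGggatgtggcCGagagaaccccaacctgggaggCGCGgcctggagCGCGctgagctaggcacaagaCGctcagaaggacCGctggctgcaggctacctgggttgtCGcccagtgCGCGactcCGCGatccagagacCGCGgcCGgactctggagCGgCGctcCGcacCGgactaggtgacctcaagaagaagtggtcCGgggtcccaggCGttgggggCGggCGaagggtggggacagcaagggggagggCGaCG
Dlx2 promoter, chr2:71546705-71547004, minus strand: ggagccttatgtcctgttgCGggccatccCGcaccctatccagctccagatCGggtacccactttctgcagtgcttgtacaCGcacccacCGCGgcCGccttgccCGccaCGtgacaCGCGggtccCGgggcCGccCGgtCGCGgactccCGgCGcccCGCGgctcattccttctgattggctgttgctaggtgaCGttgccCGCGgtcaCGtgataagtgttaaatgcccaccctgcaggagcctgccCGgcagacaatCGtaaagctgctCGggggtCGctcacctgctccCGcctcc
The Dlx1 promoter held 27 CpGs in 300 bases with 69.3% G and C, and the Dlx2 promoter held 29 with 66.3%. Both sequences lay whole under an H3K4me3 peak in both cultures and under no H3K27me3 peak in either. Suz12 peaks covered 199 bases of the Dlx1 promoter in LIF-ESCs and all 300 in Myc-ESCs, against 0 and 36 bases of the Dlx2 promoter. CACGTG, the canonical E-box to which Myc binds with Max, reads the same on both strands. It occurred 2 times in the Dlx2 promoter, at bases 109 to 114 and 209 to 214, and 0 times in that of Dlx1, while 7.15% of 32851 promoter entries held it. These matches are a description of letters, and binding of Myc was not analysed here.

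The highest-scoring H3K27me3 peak in LIF-ESCs at Dlx1-Dlx2 and that at Dlx5-Dlx6 are shown for contrast, since these short peaks are where PRC2 product was called in the culture with the shorter list. Each is given on the plus strand with CpGs in capitals, and the first is the central 300 bases of a 327-bp peak.
Between Dlx1 and Dlx2, chr2:71537632-71537931: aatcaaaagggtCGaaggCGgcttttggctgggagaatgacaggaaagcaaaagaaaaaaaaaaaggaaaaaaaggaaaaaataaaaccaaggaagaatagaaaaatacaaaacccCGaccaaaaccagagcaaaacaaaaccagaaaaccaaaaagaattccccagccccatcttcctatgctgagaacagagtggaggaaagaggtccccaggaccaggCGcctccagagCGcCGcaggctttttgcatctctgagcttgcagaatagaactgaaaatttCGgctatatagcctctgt
Upstream of Dlx6, chr6:6861845-6862050: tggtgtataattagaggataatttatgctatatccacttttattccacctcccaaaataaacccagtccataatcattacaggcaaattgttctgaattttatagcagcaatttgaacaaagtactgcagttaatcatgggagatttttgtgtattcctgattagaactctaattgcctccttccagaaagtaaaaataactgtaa
They held 7 and 0 CpGs and 43.7% and 32.5% G and C. The first lay over the start site of Dlx1as (position 71537891), and the other at -1489 to -1284 bp from the Dlx6 start site. In Myc-ESCs an H3K27me3 peak covered 264 of the 300 bases printed between Dlx1 and Dlx2. It covered 0 of the 206 bases at Dlx6. No Myc-ESC peak overlapped the Dlx6 peak, but Myc-ESC peaks lay close on both sides of it. They lay at -1894 to -1570 bp and -1265 to -1010 bp from the Dlx6 start site, with scores of 166 and 142. The Dlx6 window held 361 bases under H3K27me3 in LIF-ESCs and 1398 in Myc-ESCs, so the site was not one marked in LIF-ESCs alone.

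**Figure D1:**
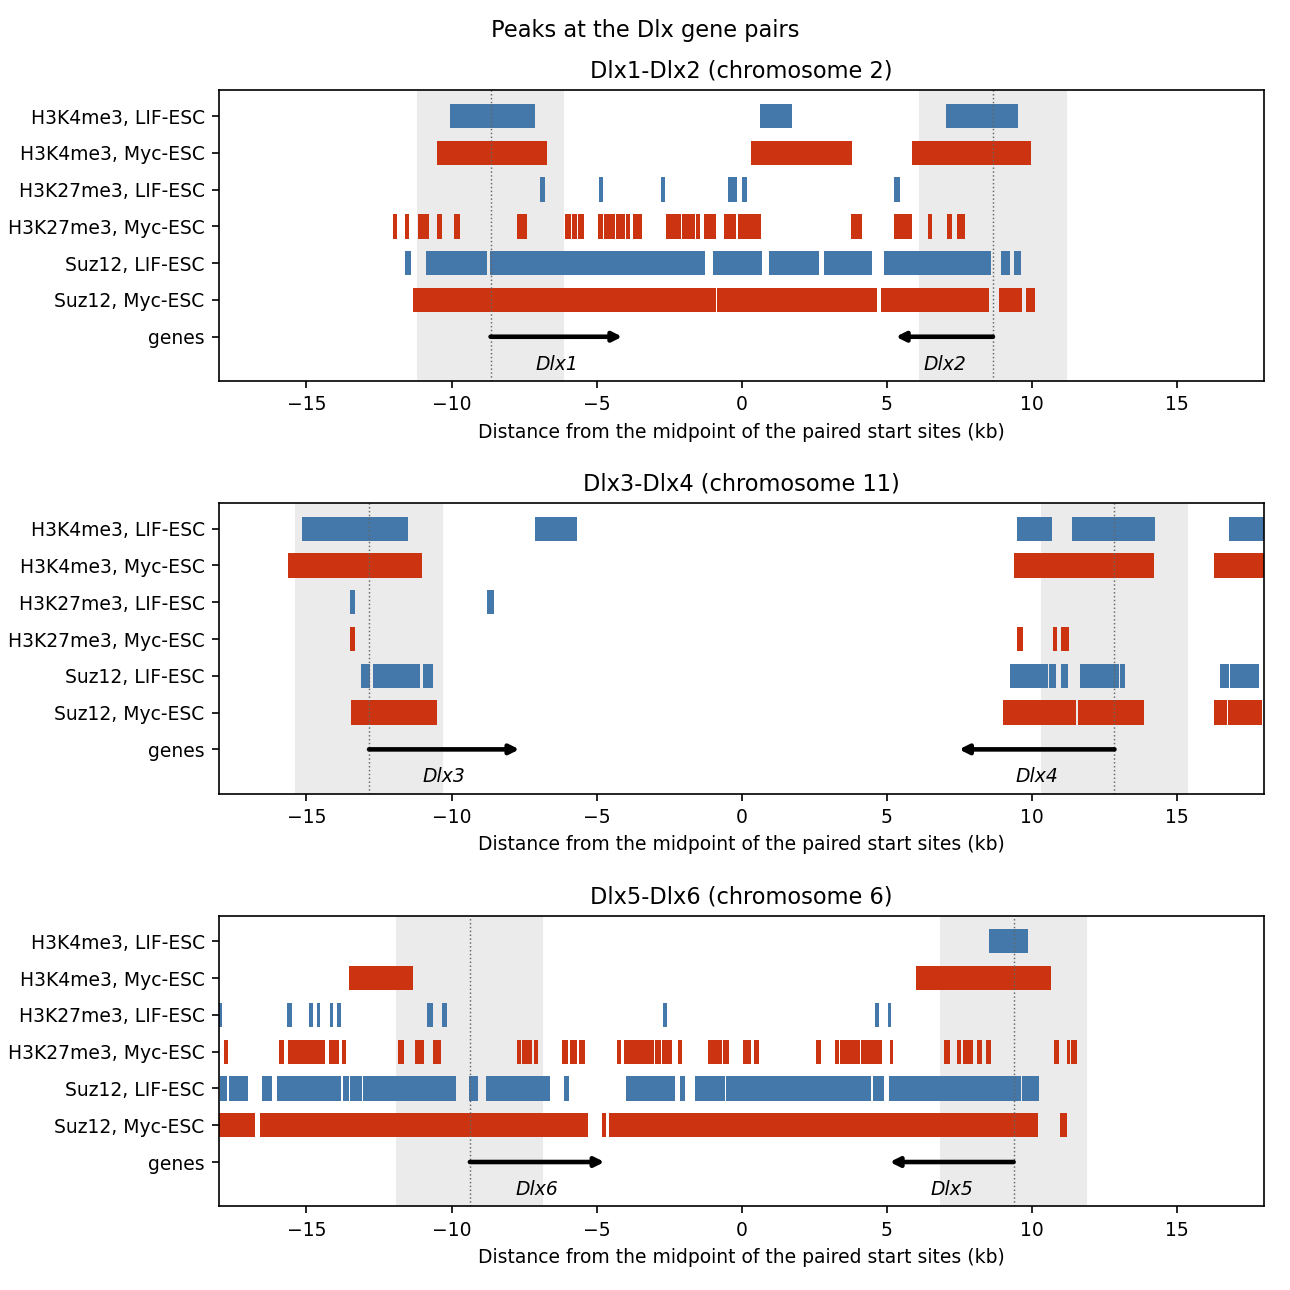
Peaks of the 6 lists within 18 kb of the midpoint between the paired start sites, with 1 panel per pair, distance in kb on the x axis and 1 row per list (blue, LIF-ESCs; red, Myc-ESCs). Arrows are the genes in their direction of transcription, dotted lines the start sites and grey bands the 2500 bp on either side. Suz12 covers most of the Dlx1-Dlx2 and Dlx5-Dlx6 pairs, with a gap by the end of Dlx6 in LIF-ESCs, H3K27me3 in Myc-ESCs is dense between those genes, and the middle of Dlx3-Dlx4 holds no Suz12 or H3K27me3 peak in either culture.

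Suz12 was the mark that the 6 genes shared in both cultures. All 6 had a Suz12 peak within 2500 bp of the start site in LIF-ESCs and all 6 in Myc-ESCs, where 12.1% and 14.6% of all genes had one. In bulk cultures, more cells with a mark and more of the mark per cell cannot be told apart, and marks called at 1 gene need not lie on the same chromosome copy. The window of 5001 bp around the Dlx1 start site was covered over 4623 bases in LIF-ESCs and 5001 bases in Myc-ESCs. Around Dlx6 the values were 4263 and 5000 bases. These were the most covered members, and Dlx3 and Dlx4, with 2288 and 2211 bases in LIF-ESCs, the least. For Dlx2 the covered bases were 3002 (LIF-ESCs) and 3465 (Myc-ESCs), and for Dlx5 they were 3323 and 3590. In Myc-ESCs Dlx3 had 2971 and Dlx4 3459 bases. The median share of the window under Suz12 was 63.2% over the members in LIF-ESCs, where the median over all genes with the mark was 17.2%, and 70.5% in Myc-ESCs against 24%. Every member lay above both of these all-gene medians, and between 79.8% and 96.5% of Suz12-marked genes were less covered than the members in LIF-ESCs.

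Suz12 lay over the start site itself in 5 of the 6 genes in each culture. Among all Suz12-marked genes the share was 39.5% in LIF-ESCs and 48.9% in Myc-ESCs. The exception was Dlx2, whose start site fell in a gap of 344 bp between Suz12 peaks in LIF-ESCs and of 337 bp in Myc-ESCs. The gap was thus present in both lists, which came from separate cultures. The peaks over the start sites differed in form. In LIF-ESCs the Dlx1, Dlx3 and Dlx6 start sites lay in peaks of 215, 323 and 292 bp with scores of 70.8, 128 and 125. The score is the MACS value, minus 10 times the log10 of the peak's p-value. It began at 50 in these lists, and 3100 is written where the p-value is too small to compute. In Myc-ESCs the same start sites lay in peaks of 10423, 2971 and 4460 bp, all with a score of 3100. These overlapped 4, 4 and 3 LIF-ESC peaks, so the short LIF-ESC peaks had longer ones beside them. At Dlx1 a 7208-bp LIF-ESC peak with a score of 3100 began 184 bp downstream of the start site. At Dlx3 one of 1347 bp began at 123 bp, and at Dlx6 one of 2227 bp at 540 bp. The Dlx1 window was 92.4% covered in LIF-ESCs and 100% in Myc-ESCs. The Dlx5 start site lay in a 963-bp peak in LIF-ESCs and in one of 14795 bp in Myc-ESCs, which overlapped 11 LIF-ESC peaks. That of Dlx4 lay in peaks of 1335 and 2273 bp.

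Counts of peaks and covered bases moved in opposite directions for Suz12. Over the 3 pairs with 2500 bp on either side, 35 Suz12 peaks covered 42436 bases in LIF-ESCs and 15 peaks covered 50117 bases in Myc-ESCs. Nearly every LIF-ESC base lay also under a Myc-ESC peak, 99.4% of them at Dlx1-Dlx2, 99.7% at Dlx3-Dlx4 and 99.9% at Dlx5-Dlx6. The fewer peaks in Myc-ESCs were therefore joined peaks and not lost ones. The bases in Myc-ESCs were 1.09, 1.39 and 1.21 times those in LIF-ESCs at the 3 pairs, below the ratio of 1.51 of the whole lists. Of the 33 LIF-ESC Suz12 peaks at the start sites and between the genes, 33 overlapped a Myc-ESC peak, compared with 78.2% of all LIF-ESC Suz12 peaks.

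Suz12 peaks no more than 1000 bp apart were joined into runs to measure the domains. In each culture a single run held both the Dlx1 and the Dlx2 start site, with a length of 21221 bp with LIF and 21422 bp with OHT. It ranked 9 by length among 4469 runs in LIF-ESCs and 31 among 5311 in Myc-ESCs. Dlx5 and Dlx6 lay in separate runs of 14231 and 12526 bp in LIF-ESCs, which ranked 40 and 62. In Myc-ESCs 1 run of 34853 bp held both start sites and ranked 11. Dlx3 and Dlx4 kept separate runs, 2492 and 3983 bp long in LIF-ESCs and 2971 and 4879 bp in Myc-ESCs. The pairs thus differed by size of domain, with Dlx3-Dlx4 bound only near its start sites.

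**Figure D2:**
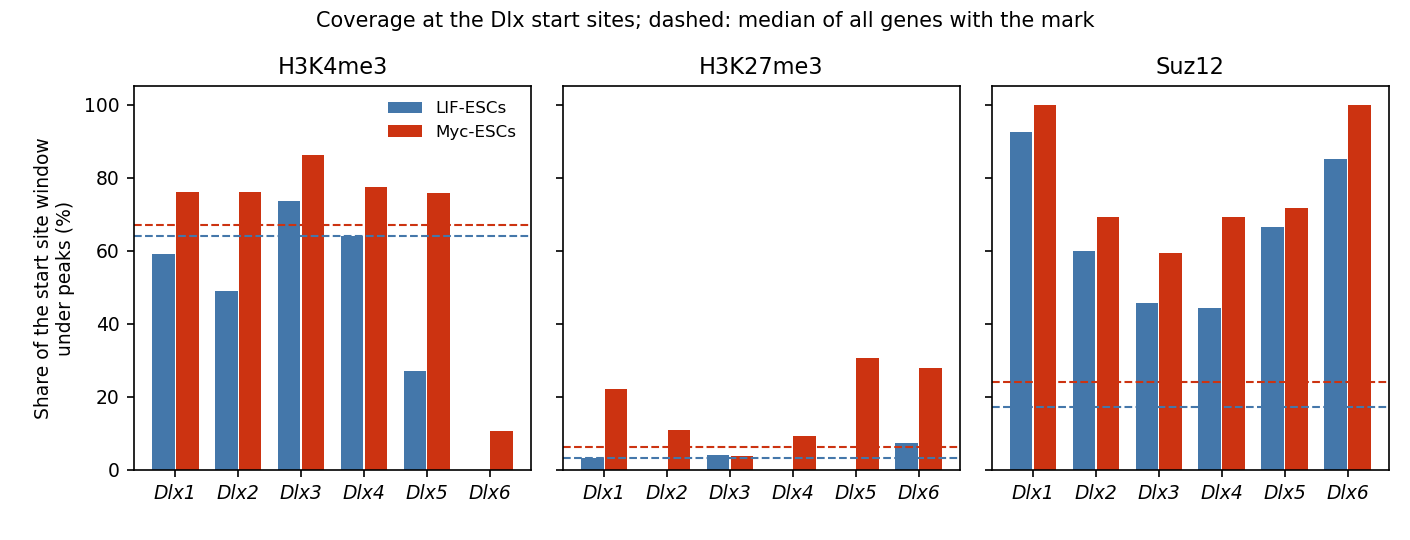
Share of the 5001-bp window around each Dlx start site that lay under peaks, in percent, for H3K4me3, H3K27me3 and Suz12 (bars from 0; blue, LIF-ESCs; red, Myc-ESCs; 1 list each, no error bars). Dashed lines are the medians over all genes with the mark. Suz12 bars lie above both medians for all 6 genes, and H3K27me3 bars are absent for Dlx2, Dlx4 and Dlx5 in LIF-ESCs.

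H3K27me3 differed most between the lists of the cultures. In LIF-ESCs 3 of the 6 genes had a peak within 2500 bp, Dlx1, Dlx3 and Dlx6, where 3.82% of all genes had one. In Myc-ESCs all 6 had one, where 10.7% of all genes did. The Myc-ESC list was longer throughout, with 16717 peaks against 3120. Around Dlx1, 162 bases lay under H3K27me3 in LIF-ESCs and 1098 in Myc-ESCs. Around Dlx6 the values were 361 and 1398 bases. Dlx2, Dlx4 and Dlx5, which had none in LIF-ESCs, had 547, 460 and 1527 bases in Myc-ESCs. In the full Myc-ESC list Dlx5 held the most of the family, in 8 separate peaks, and 93.1% of all H3K27me3-marked genes were less covered. Dlx3 stood apart from the other members, with 198 bases in LIF-ESCs and 184 in Myc-ESCs, from 1 peak at nearly the same place in each. The 3 marked members in LIF-ESCs had 3.24%, 3.96% and 7.22% of the window covered, where the median over all marked genes was 3.12%. In Myc-ESCs the median was 16.4% over the 6 members and 6.36% over all marked genes.

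Much of this difference depended on the length and the threshold of the lists. When only the 3120 highest-scoring peaks of the Myc-ESC list were kept, to match the LIF-ESC list, 4 members had H3K27me3, Dlx1, Dlx4, Dlx5 and Dlx6, against 3 in LIF-ESCs. Dlx4 and Dlx5 then carried the mark in Myc-ESCs only, Dlx3 in LIF-ESCs only, and Dlx2 in neither. The bases covered at the start sites were 2521 in Myc-ESCs and 721 in LIF-ESCs at that length. Dlx5 then no longer held the most in Myc-ESCs, with 355 bases against 951 at Dlx1 and 910 at Dlx6. With a score of at least 100 required, no member had H3K27me3 in LIF-ESCs and the same 4 had it in Myc-ESCs. The 11 LIF-ESC peaks at the start sites and between the genes had scores from 57.1 to 114 with a median of 74.6, and 1 of them reached 100. Low scores were common to that whole list, which had a median of 63.7 and 89.1% of its peaks under 100. The 54 peaks in Myc-ESCs had scores from 51.2 to 459 with a median of 79.7, and 22 of them reached 100, where the whole list had a median of 65.4 and 79.8% of its peaks under 100.

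**Figure D3:**
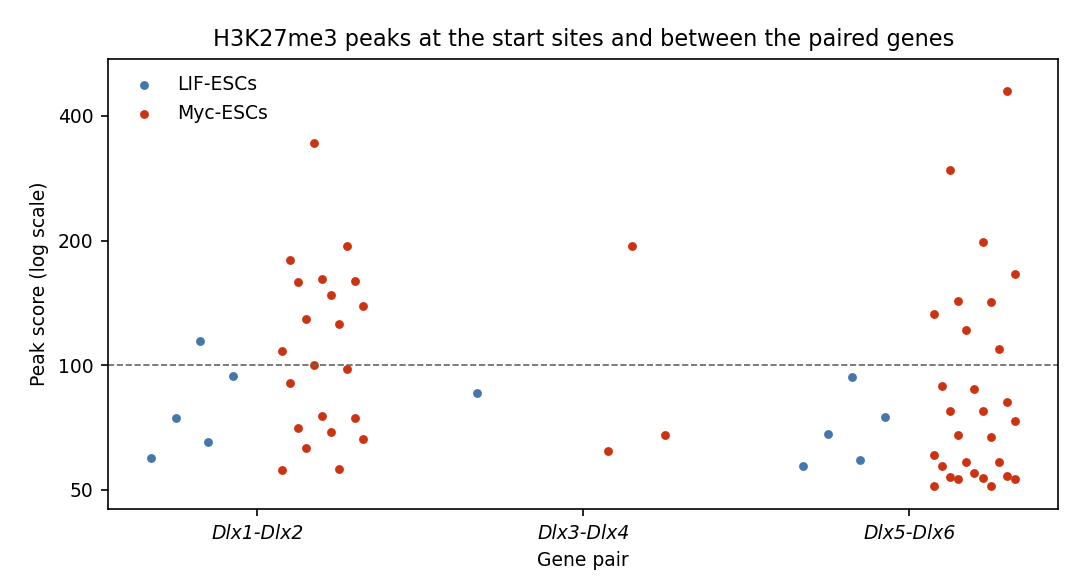
Scores of the H3K27me3 peaks at the start sites and between the paired genes, 1 point per peak on a log axis, by gene pair and culture (blue, LIF-ESCs, 11 peaks; red, Myc-ESCs, 54 peaks; sideways spread is for legibility only). The dashed line marks a score of 100, which 1 LIF-ESC peak, between Dlx1 and Dlx2, and 22 Myc-ESC peaks reached.

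No Dlx start site lay under an H3K27me3 peak in either culture. The same held for most genes, since a peak lay over a start site in only 2.6% of H3K27me3-marked genes for LIF-ESCs and 3.84% for Myc-ESCs. The nearest peak in Myc-ESCs lay 482 bp from the start site at Dlx3, 790 bp at Dlx5, 903 bp at Dlx1, 958 bp at Dlx2, 1010 bp at Dlx6 and 1551 bp at Dlx4. In LIF-ESCs the distances were 469 bp at Dlx3, 805 bp at Dlx6 and 1716 bp at Dlx1, and reached 21392 bp at Dlx4. Within 1000 bp of the start site, H3K27me3 covered 353 bases over the members in LIF-ESCs and 471 in Myc-ESCs. The larger figures for Myc-ESCs therefore came from the flanks of the start sites.

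The H3K27me3 peaks of the cultures were matched by overlap. Of the 54 Myc-ESC peaks, 6 overlapped a LIF-ESC peak, and of the 11 LIF-ESC peaks, 7 overlapped a Myc-ESC peak. Over the whole lists 8.95% of Myc-ESC and 51.6% of LIF-ESC peaks did so, and the members' shares were 11.1% and 63.6%. At Dlx5-Dlx6, with 2500 bp on either side, 736 bases lay under H3K27me3 in LIF-ESCs, 8338 did in Myc-ESCs, and 307 of them were shared. At Dlx1-Dlx2 the values were 1160 and 7182 bases with 796 in both. At Dlx3-Dlx4 they were 411 and 838 bases with 184 in both. The Myc-ESC bases were 11.3, 6.19 and 2.04 times the LIF-ESC bases at these pairs, where the ratio of the whole lists was 5.52. Dlx5-Dlx6 thus lay above that ratio, Dlx1-Dlx2 near it and Dlx3-Dlx4 below it.

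The stretches between the paired genes, where their shared enhancers lie, divided the family. Between Dlx1 and Dlx2, H3K27me3 covered 688 bases in 4 peaks in LIF-ESCs (7.3%) and 3604 bases in 15 peaks in Myc-ESCs (38.2%). Between Dlx5 and Dlx6 it covered 330 bases in 3 peaks (3.36%) and 4699 bases in 15 peaks (47.8%). The strongest of the 54 Myc-ESC H3K27me3 peaks at the start sites and between the genes, with a score of 459, lay in that stretch. A peak further upstream of Dlx6, outside these regions, had a score of 621 in Myc-ESCs. Suz12 covered 88.2% of the Dlx1-Dlx2 stretch in LIF-ESCs, 98% of it in Myc-ESCs, and 83.9% and 99% of the Dlx5-Dlx6 stretch. Between Dlx3 and Dlx4 no H3K27me3 or Suz12 peak was called in either culture. The lists differed also at equal length, where H3K27me3 between the genes covered 2407 bases at Dlx1-Dlx2 and 2917 at Dlx5-Dlx6 in Myc-ESCs.

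In LIF-ESCs 5 of the 6 genes had an H3K4me3 peak within 2500 bp of the start site, where 62.2% of all genes had one. In Myc-ESCs all 6 had one, where 63.3% of all genes did, but at Dlx6 the peak did not reach the start site. The shares of all genes were high, so the counts of members say little about the family. The peaks at Dlx1 to Dlx5 lay over the start site in both cultures, as did those of 95% (LIF-ESCs) and 95.2% (Myc-ESCs) of all marked genes. Around Dlx1 they covered 2955 bases in LIF-ESCs against 3809 in Myc-ESCs, and around Dlx2 2453 and 3813 bases. Around Dlx3 the values were 3676 and 4310 bases, and around Dlx4 3205 and 3872 bases. All 5 windows were more covered in Myc-ESCs. The peak score was lower there at Dlx1 (706 against 975) and Dlx4 (836 against 1150), and higher at Dlx2 (1039 against 981), Dlx3 (421 against 307) and Dlx5. Over the 6 members, those without a peak counted as 0, the median share of the window was 54.1% in LIF-ESCs and 76.2% in Myc-ESCs, where the same medians over all genes were 42.8% and 49.4%. Over genes with an H3K4me3 peak alone the medians were 64% and 67.1%. The median of the members thus lay below that of marked genes in LIF-ESCs and above it in Myc-ESCs.

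Dlx5 and Dlx6 differed from the other members in H3K4me3. Dlx5, a regulator of bone and jaw formation, had a peak of 1349 bp with a score of 53.6 in LIF-ESCs, near the lowest score of the list, and one of 4642 bp with a score of 318 in Myc-ESCs. The LIF-ESC peak was lost at a score of at least 100 and also when the longer list was limited to the length of the shorter. Dlx6 had no H3K4me3 peak within 17884 bp of its start site in LIF-ESCs. In Myc-ESCs a peak of 2212 bp with a score of 101 reached 536 bases into the window and ended 1965 bp upstream of the start site. The call at Dlx6 was lost with 1000 bp on either side. That peak lay 314 bp from one start site of the noncoding Dlx6os1, so it cannot be assigned to Dlx6.

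H3K4me3 was also called away from the start sites. Between Dlx1 and Dlx2 a peak of 1102 bp with a score of 58.8 in LIF-ESCs overlapped one of 3492 bp with a score of 146 in Myc-ESCs. Between Dlx3 and Dlx4 a peak of 1437 bp with a score of 51.3 was called in LIF-ESCs and none in Myc-ESCs. Between Dlx5 and Dlx6 there was none in either culture. The LIF-ESC peaks of both stretches had scores near the limit of the list and were lost at a score of at least 100. Over the pairs with 2500 bp on either side, H3K4me3 bases in Myc-ESCs were 1.75 times those in LIF-ESCs at Dlx1-Dlx2, 0.995 times at Dlx3-Dlx4 and 3.84 times at Dlx5-Dlx6, where the ratio of the whole lists was 0.977.

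All 3 marks together stood at 2 of the 6 genes in LIF-ESCs, Dlx1 and Dlx3, and at all 6 in Myc-ESCs. Over all genes the shares were 2.77% and 8.87%. The Myc-ESC count includes Dlx6 through the H3K4me3 peak that cannot be assigned to it. Both counts depended on the H3K27me3 lists. With a score of at least 100, H3K27me3 was called at 0 members in LIF-ESCs and at 4 in Myc-ESCs, Dlx1, Dlx4, Dlx5 and Dlx6. With lists of equal length it was called at 3 and at the same 4. With the weak Myc-ESC peak left aside, Dlx6 was the member with Suz12 and H3K27me3 in both cultures and no H3K4me3 peak over its start site. Dlx2, Dlx4 and Dlx5 had H3K4me3 and Suz12 without H3K27me3 in LIF-ESCs.

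The marks overlapped on the same bases to differing extents. At Dlx1-Dlx2 100% of H3K27me3 bases in LIF-ESCs and 99.8% in Myc-ESCs lay under Suz12, and at Dlx5-Dlx6 97.1% and 93.8% did. Over the whole lists the shares were 45.2% and 48.8%. At Dlx3-Dlx4 the share was 0% of 411 bases in LIF-ESCs and 95% of 838 bases in Myc-ESCs. H3K27me3 and H3K4me3 shared no base at Dlx1-Dlx2 or Dlx5-Dlx6 in LIF-ESCs. At Dlx3-Dlx4 48.2% of the H3K27me3 bases lay under H3K4me3 there, and over the whole LIF-ESC list 26.6% did. In Myc-ESCs 22.6% and 14.4% of the H3K27me3 bases at these pairs lay under H3K4me3, and 100% did at Dlx3-Dlx4, against 28.7% over the whole list. H3K4me3 lay largely under Suz12 as well, over 87.5% of its bases at Dlx1-Dlx2 in LIF-ESCs and 95.8% in Myc-ESCs, where the whole lists had 3.97% and 7.17%. At Dlx5-Dlx6 these shares were 95.9% and 91.6%, and at Dlx3-Dlx4 46.3% and 74.9%.

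CpG content set the windows of the Dlx genes apart from most others. The windows of Dlx2, Dlx1 and Dlx3 held 4.74, 4.52 and 4.18 CpGs per 100 bases, that of Dlx6 held 3.86, and those of Dlx4 and Dlx5 held 3.08 and 3.06. The median was 1.82 over all genes and 2.94 over genes with Suz12 in LIF-ESCs. Within the pairs CpGs were denser under Suz12 and H3K4me3 and sparser under H3K27me3. At Dlx5-Dlx6 in Myc-ESCs there were 1.81 CpGs per 100 bases inside H3K27me3 peaks and 2.89 outside. At Dlx1-Dlx2 the values were 2.62 and 4.24, and at Dlx3-Dlx4 1.79 and 2.3. For Suz12 in Myc-ESCs the densities inside and outside were 2.66 and 0.863 at Dlx5-Dlx6, 3.77 and 3.13 at Dlx1-Dlx2, and 4.38 and 1.58 at Dlx3-Dlx4. The sign of each of these differences was the same in LIF-ESCs. CACGTG was found in the windows of 5 members, all but Dlx3, and in 50.8% of the windows of all genes.

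**Figure D4:**
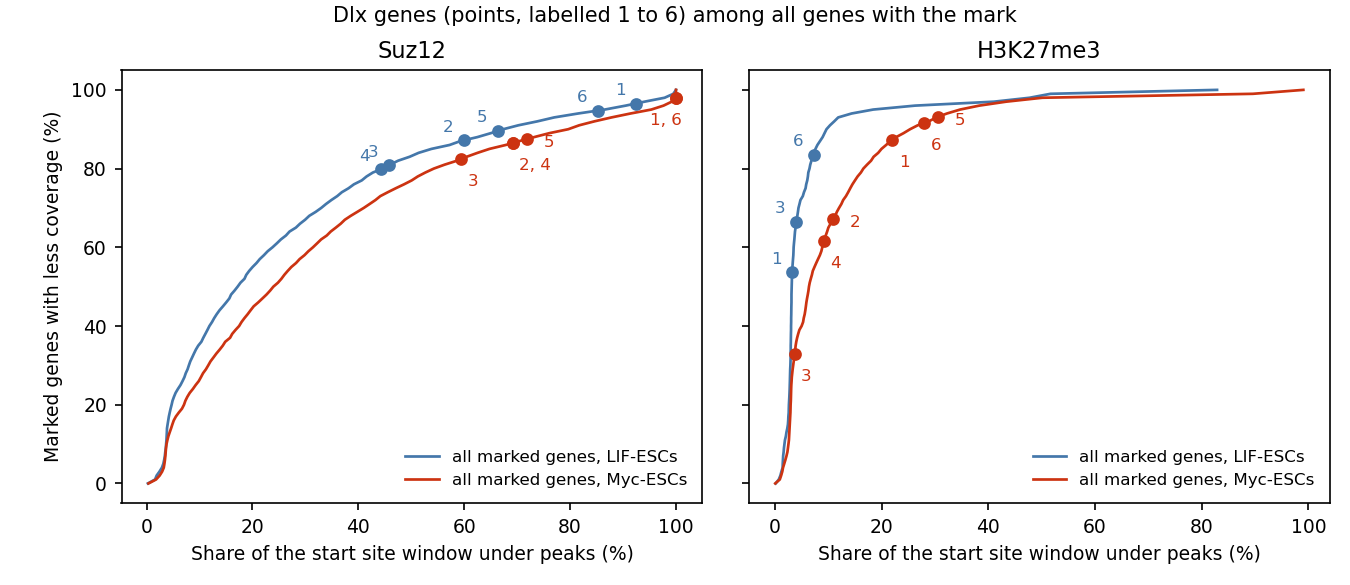
Share of the window under Suz12 (left) or H3K27me3 (right) peaks on the x axis and, on the y axis, the percent of genes with that mark that were less covered. Lines are all marked genes, points the Dlx genes labelled 1 to 6 (blue, LIF-ESCs; red, Myc-ESCs), and members without a peak are not drawn. Suz12 points lie in the upper part of the lines in both cultures, while Dlx3 lies low for H3K27me3 in Myc-ESCs with 33% of marked genes less covered.

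The pattern of the 6 lists was compared between genes by the sum of the absolute differences in the share of the window covered. The closest members were Dlx2 and Dlx4, at 33.9 percentage points, and then the paired Dlx3 and Dlx4 at 39. Dlx1 and Dlx2 differed by 87.5 and Dlx5 and Dlx6 by 149 points. The nearest member of Dlx1 was its partner Dlx2, and that of Dlx3 was its partner Dlx4. Dlx2 and Dlx4 were nearest to each other, so in no pair were both genes each other's nearest member. Outside the family, the most similar genes were Gad1os and Flt1 for Dlx1, Cyp24a1 and Prrxl1 for Dlx2, and Mir124a-3 and Col27a1 for Dlx3. Csmd1 and Duox2 were most similar to Dlx5. Lhx8 and Six3 were most similar to Dlx6. Lhx8 lay 19.6 and Six3 20.3 points from Dlx6. Both had no H3K4me3 peak in LIF-ESCs and 10.9% and 17.1% of the window covered in Myc-ESCs, beside 0% and 10.7% at Dlx6. These shares were part of the measure by which the genes were picked, so the likeness is not a separate result.

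Suz12 and H3K27me3 were not called at the start sites of the protein-coding neighbours of the Dlx pairs. Metap1d and Itga6 flank Dlx1-Dlx2, Itga3 and Tac4 flank Dlx3-Dlx4, and Sem1 and Sdhaf3 flank Dlx5-Dlx6. All 6 had H3K4me3 within 2500 bp of a start site in both cultures and none had a Suz12 or H3K27me3 peak there in either. Metap1d, an aminopeptidase gene, ended only 4251 bp from the Dlx1 start site, but its marks were read around its own start site and not at this end. The noncoding genes carried Suz12 at each of their start sites in both cultures. Peaks of H3K27me3 lay over the start site of Dlx1as in both cultures and over those of Dlx6os2 and Dlx6os1 in Myc-ESCs. These genes share bases with the Dlx genes, so their marks are not separate observations.

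Another clustered homeobox family was set beside the Dlx genes. The Iroquois genes Irx1 to Irx6 are patterning factors of brain, heart and limb. In both cultures 6 of 6 had a Suz12 peak within 2500 bp of the start site. Their H3K27me3 was at 3 in LIF-ESCs and 6 in Myc-ESCs, the counts of the Dlx genes. The median bases under H3K27me3 in Myc-ESCs were 822.5 over the Dlx genes and 440.5 over the Irx genes, from ranges that overlapped. All 3 marks stood at 6 of the Dlx genes and 5 of the Irx genes in Myc-ESCs, beside 8.87% of all genes. The Dlx count includes Dlx6 through the H3K4me3 peak that cannot be assigned to it, so this difference between the families rests on that peak.

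**Figure D5:**
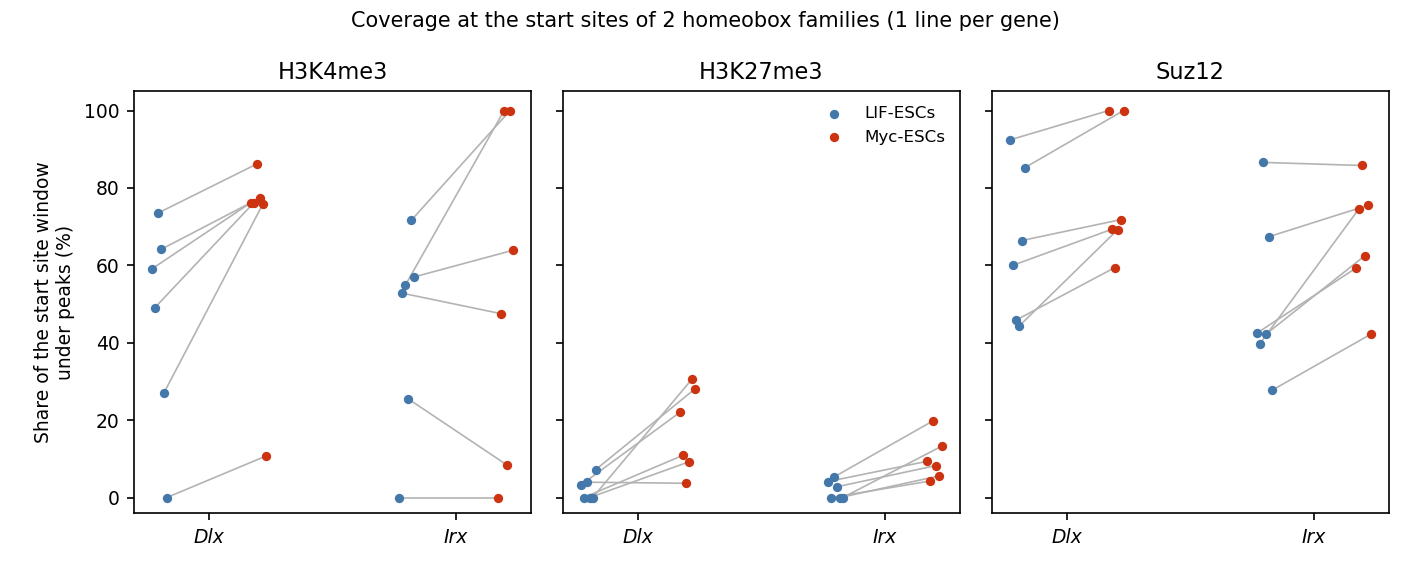
Share of the start site window under peaks, in percent, for Dlx1 to Dlx6 and Irx1 to Irx6 and the 3 antibodies, with 1 line per gene from LIF-ESCs (blue) to Myc-ESCs (red). The ranges of the families overlap for each mark in each culture, and the H3K27me3 values of Dlx5 and Dlx6 in Myc-ESCs, 30.5% and 28%, are the highest of the genes drawn.

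Genes that act with the Dlx family were read from lists chosen for their known roles. Of 16 regulators and targets in forebrain interneurons, Suz12 was called at 16 in both cultures, H3K27me3 at 10 in LIF-ESCs against 16 in Myc-ESCs, and H3K4me3 at 13 and 14. Gsx2, a homeobox factor of the ganglionic eminence that lies upstream of Dlx1 and Dlx2, had 137 bases under H3K27me3 in LIF-ESCs and 2000 in Myc-ESCs. Gad1, which encodes an enzyme of GABA synthesis, had 0 and 1338 bases. Of 18 partners in jaw, branchial arch, bone and limb, Suz12 was called at 15 and 16, H3K27me3 at 8 and 13, and H3K4me3 at 14 and 14. Hand2, a factor of the lower jaw downstream of Dlx5 and Dlx6, had 433 and 2247 bases under H3K27me3. Sp7, an osteoblast factor, had no Suz12 or H3K27me3 peak in either culture. Of all genes, 3.82% and 10.7% had H3K27me3, 12.1% and 14.6% Suz12, and 62.2% and 63.3% H3K4me3, in LIF-ESCs and Myc-ESCs. The H3K4me3 shares of all genes were high, so those counts say little about the lists. The lists were not tested.

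The cell identity of both lists was read from marker genes. H3K4me3 was at all 10 markers of ESCs in both cultures. H3K27me3 was at 0 of them in LIF-ESCs and at 1, Esrrb, in Myc-ESCs. Suz12 was at 1 of them, Esrrb, in LIF-ESCs and at 2 in Myc-ESCs. Of 8 fibroblast markers, 4 had a peak of H3K4me3 in the LIF-ESC list and 5 in that of Myc-ESCs, beside 62.2% and 63.3% of all genes. Col1a1, Thy1, Twist1 and Twist2 had it in both cultures and Col1a2 in Myc-ESCs, while Postn, Lum and Dcn had no peak of any antibody in either culture. Suz12 was at 2 of the 8, Twist1 and Twist2, in LIF-ESCs and at 4 in Myc-ESCs, and H3K27me3 at 0 and 2. The part of these marker genes in the Dlx values was not tested.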

How the data were processed

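H3K4me3, H3K27me3 and Suz12 ChIP-sequencing libraries of LIF-ESCs and Myc-ESCs (2 for each culture and antibody, with 4 inputs among 16 libraries) were grouped by their labels. The authors aligned HiSeq2000 reads with Bowtie2 2.2.3 to GRCm38 (mm10), used only reads with 1 best place in the genome, and ran MACS 1.4.2 to find peaks. The deposited score of each peak is minus 10 times the log10 of its p-value and grows with depth as well as enrichment. Pooling of the libraries is not given in the sources used here, and with no counts in the lists depth is unknown.

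The positions of all peaks were checked against the GRCm38 chromosome lengths, and no list held overlapping peaks. Start sites came from 45755 curated RefSeq transcripts of 26180 genes on 21 chromosomes (GRCm38.p6), and a gene was marked when a peak shared at least 1 bp with the 2500 bp on either side. Genes with several start sites had the union of their windows. Python 3.11.15, numpy 2.4.6, pysam 0.24.0 and matplotlib 3.10.9 were used, and the interval code was tested on simulated data. No test was run, since no list has a replicate. Named genes were the members, overlapping noncoding genes, the nearest outer protein-coding genes, the 2 genes most similar to each member, and members of the lists. The members and lists were chosen with earlier results of these data known. Other settings tried were lists of equal length, a score of at least 100, windows of 1000 and 5000 bp, an overlap of 100 bp, predicted transcripts, and intervals from start site to start site. Gene expression and Myc binding were not analysed here. Some genes, a comparison family and a sequence that these rules select are not reported here.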

Additional observations from a re-analysis of the deposited data

How the results depend on the processing

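Of 84 alternative values of 18 results, 60 stayed within 1.5 times the reported value. The other 24 follow, as bases under peaks unless stated. With a score of at least 100, H3K4me3 between the paired genes in LIF-ESCs fell from 2539 to 0, H3K27me3 at the start sites from 721 to 0 (0 genes) and between the genes from 1018 to 327, and Myc-ESC H3K27me3 at the start sites from 5214 to 2521. With lists of equal length, H3K4me3 between the genes in LIF-ESCs was 0, and Myc-ESC H3K27me3 was 2521 at the start sites and 5324 between the genes (8303 as reported). With 1000 bp on either side, the values at the start sites were 10005 for H3K4me3 in Myc-ESCs, 353 and 471 for H3K27me3 in LIF-ESCs and Myc-ESCs, and 9022 and 11134 for Suz12. With 5000 bp they were 1799 and 10081 for H3K27me3, with 5 genes in LIF-ESCs, and 31965 and 38364 for Suz12. From start site to start site, which is longer by construction, they were 10561 and 16861 for H3K4me3, 1748 and 14120 for H3K27me3, and 36252 and 41294 for Suz12 in LIF-ESCs and Myc-ESCs. No paired analysis was possible because 1 list stands for the 2 libraries of each culture and antibody. For the same reason leaving out a replicate was not run.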
